A study of Homo sapiens with 8 samples.

Results

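Tight junctions seal the space between neighbouring epithelial cells, and 9 genes of their membrane strands and scaffolds were followed here in human embryonic stem cells of 2 sizes. The genes were chosen by symbol: 5 claudins (CLDN3, CLDN4, CLDN6, CLDN7 and CLDN10), occludin (OCLN), tricellulin (MARVELD2), the junctional adhesion molecule F11R and the scaffold TJP1. A gene was measured where a probe set, the group of short probes that reads 1 transcript on the array, was annotated to its symbol alone. This gave 17 probe sets for 8 of the 9 genes, among 19775 genes with a probe set of their own. F11R had no such probe set in the annotation used and was not analysed here.

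Both groups were H1, an established line of human embryonic stem cells, kept over irradiated mouse embryonic fibroblasts, and the labels name no drug or genetic change. Small and large cells were separated in a cell sorter by their scattered light, forward scatter following size and side scatter granularity. There were 4 biological sort repeats per fraction, each on its own Affymetrix U133 Plus 2.0 array, so 4 small arrays were compared with 4 large arrays of 1 cell line. Sorted fractions are bulk samples: fewer cells that express a gene and less of its RNA per cell cannot be told apart, and the values are levels relative to the RNA measured, not amounts per cell.

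Claudins are small proteins that cross the membrane several times, line up into strands and set which ions pass between cells. Occludin and tricellulin belong to another family of such proteins; occludin lies along the strands, and tricellulin gathers at the corners where cells meet. TJP1, also called ZO-1, is a scaffold under the membrane that binds claudins and occludin through separate domains and ties them to actin. Human embryonic stem cells grow as flat epithelial colonies, and CLDN6 is known as a claudin of pluripotent cells.

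The stem cell identity of the samples was checked first. All 11 measured members of a list of 12 stem cell markers passed the filter on low values, and their mean log2 level ran from 10.86 to 11 on the small arrays and from 11.04 to 11.20 on the large arrays. The mean of each small array thus lay below that of each large array. That mean includes PODXL, which had the largest difference of the list, so its order is not a trait of the whole list. Of the 11 differences 10 were below 0, with a median of -0.11. NANOG was at 10.67 in small cells and 10.73 in large cells, and SOX2 at 10.29 in small cells and 10.46 in large cells, and neither passed (limma adjusted p = 0.847 and 0.505). The sialomucin PODXL was the 1 marker of the 11 that passed, at -0.98 ± 0.15 SE (limma adjusted p = 0.00754), where 1.99% of all genes passed. It was also the 1 marker of the 11 whose groups lay apart, with small lower, against 5.07% of all genes. With limma no gene passed among 5 tested epithelial and trophoblast, 4 neuroectoderm, 4 mesoderm and endoderm, and 8 fibroblast markers. At an unadjusted p under 0.05, which 16.5% of all genes reached, there were 0, 2, 0 and 2 in these lists. They were PAX6 at 1.77 ± 0.52 SE and OTX2 at 0.31 ± 0.14 SE, transcription factors of neural tissue, and VIM, the vimentin gene, at 1.12 ± 0.30 SE and TWIST1 at 0.79 ± 0.29 SE, all named after their values had been seen. The groups overlapped for PAX6. It was at 5.63 on large array 1, within the small range of 5.13 to 5.87. On the other large arrays PAX6 was at 2.74 to 3.24, below the level of 3.62 used to filter mean values. The other 6 fibroblast markers ran from -0.59 for COL1A1 to 0.39 for POSTN. The part of these markers in the results on junction genes was not tested. The mean level of the fibroblast list ran from 6.40 to 7.75 on the small arrays and from 6.32 to 7.53 on the large arrays. The part of RNA from the mouse feeder cells in these values was not tested. Before normalization the 75th percentile ran from 45.4 to 103.5 intensity units on the small arrays and from 41.9 to 105.6 on the large arrays. RNA quality was read from GAPDH and ACTB, as the log2 excess of the 3 prime over the 5 prime probe sets; it was 2.92 on large array 1, against 1.83 to 1.89 on the other large arrays and 1.95 to 2.66 on the small arrays.

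Occludin was the 1 measured gene that was called, at an adjusted p under 0.05, and it was lower in small cells. Its brightest probe set was at 7.10, 7.50, 7.74 and 7.79 on the 4 small arrays and at 8.24, 8.48, 8.85 and 8.86 on the 4 large arrays, in log2 units of normalized intensity. Each small sort lay below each large sort. The difference, small minus large, was -1.07 ± 0.20 SE with 4 arrays per group, or 2.11-fold lower in small cells (limma over 14726 genes, Benjamini-Hochberg adjusted p = 0.0176). The 95% interval ran from -1.50 to -0.65. The exact two-sided permutation p was 0.0286, the smallest that 4 against 4 arrays can give. Occludin was called in 4 of 8 fits that left out 1 array, with adjusted p from 0.0108 to 0.0764 and differences from -1.20 to -0.93. It was not called without small array 1 or 2 (adjusted p = 0.0667 and 0.0565) or without large array 3 or 4 (adjusted p = 0.0679 and 0.0764). Nor was it called on the deposited scaling (-1.16, adjusted p = 1), with median centring (-1.01, adjusted p = 0.302) or without the variance trend (adjusted p = 0.118), where limma called no gene at all.

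**Figure D1:**
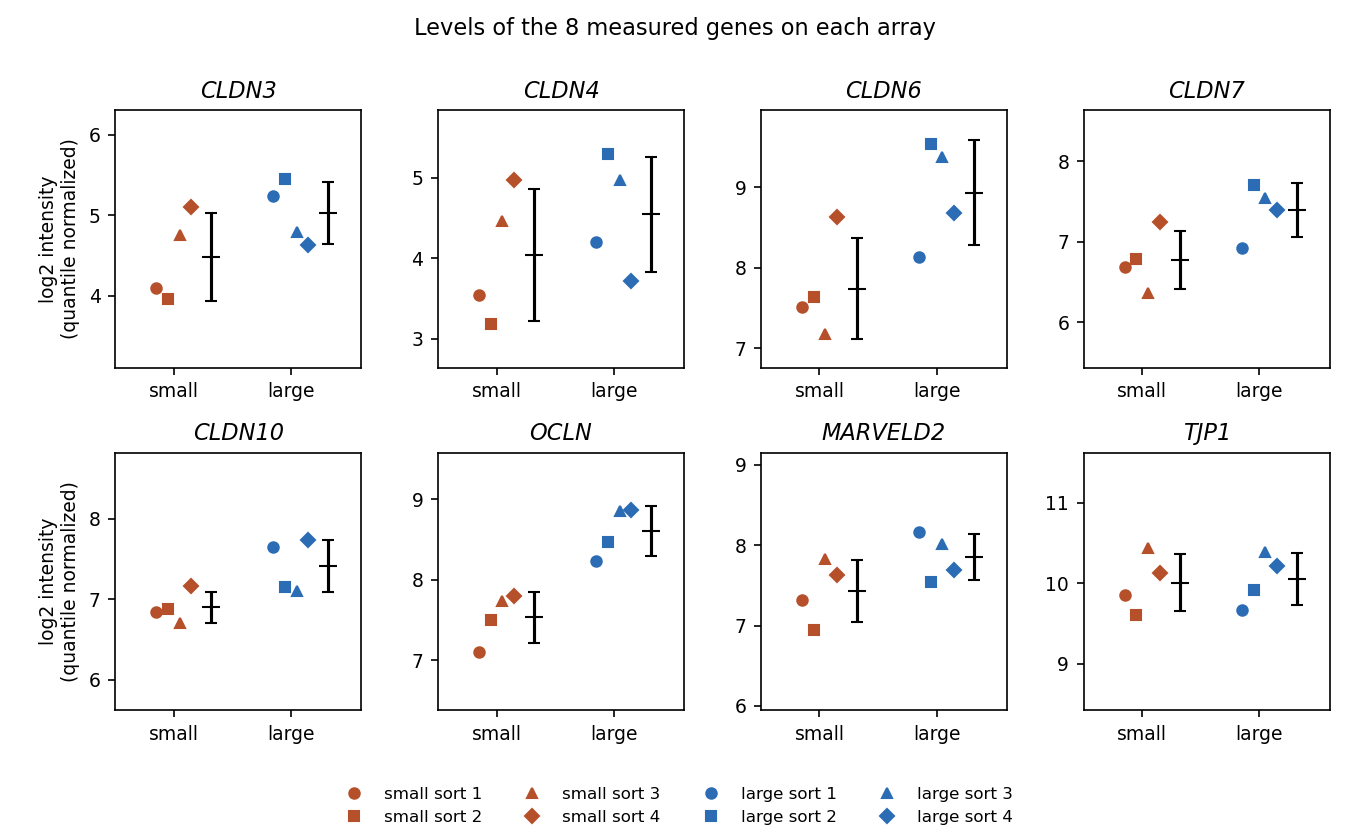
Normalized log2 intensity (y axis) of the brightest tested probe set of each of the 8 measured genes, with 1 symbol per sort, small cells on the left and large cells on the right of each panel, and the mean with SD (n = 4) beside them. Panels share the length of the y axis but not its origin; in the OCLN panel the small sorts end at 7.79 and the large sorts start at 8.24, while the groups overlap in the other 7 panels.

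Across the genes, 1 of 8 measured members was called in this fit, where 1.99% of all genes tested were called. Groups did not overlap for 1 of 8 members and for 10% of all genes, or 5.07% with small lower. At an unadjusted p under 0.05 there were 4 of 8 members and 16.5% of all genes. The median difference of the 8 members was -0.53, beside 0.05 for all genes, and all 8 differences were below 0 on the brightest probe sets. That of TJP1 was close to 0 and changed sign with the scaling. The second probe sets of MARVELD2 (0.39) and TJP1 (0.29) were above 0, so no shared direction can be given for all 8. All 8 members with a probe set passed the filter, through 14 of their 17 probe sets. The members were chosen with results of these data known, so these counts describe the set and are no test of it.

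The other occludin probe sets differed in size of effect. Probe set 231022_at was at 6.20, 6.41, 6.31 and 6.25 on the small arrays and at 6.79, 6.80, 7.07 and 6.85 on the large arrays. Probe set 209925_at was at 4.56, 4.96, 4.66 and 4.58 on the small arrays and at 5.04, 5.37, 5.75 and 5.83 on the large arrays. On 235937_at the small arrays ran from 5.01 to 5.62 and the large arrays from 5.68 to 5.99. On each of the 4 probe sets, no small sort reached a large sort. The differences were -0.81 ± 0.26 SE on 209925_at, -0.59 ± 0.17 on 231022_at and -0.40 ± 0.22 on 235937_at, with adjusted p over 32768 probe sets of 0.148, 0.122 and 0.408, so 227492_at alone passed (adjusted p = 0.0233). The mean of the 4 occludin probe sets gave -0.72 in the fit across genes (adjusted p = 0.0467). OCLNP1, a transcribed pseudogene related to occludin by name, lies on the same chromosome, and reads of its RNA by these probe sets cannot be told apart from those of occludin with the files used here.

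The promoter sequences of 4 members are printed here because these genes carry the contrasts of the data: occludin, which was called; CLDN6 and CLDN7, whose levels moved together from sort to sort; and TJP1, whose difference was near 0. Each is the 250 bases before the most upstream annotated start in RefSeq (GRCh38.p14), 5′ to 3′ on the gene's own strand. Capitals mark the letters GGGCGG, the GC box, and CACCTG, an E-box bound by the repressors SNAI1 and ZEB1, or their reverse complements CCGCCC and CAGGTG. The occludin window is chr5:69492297-69492546 on the plus strand, the TJP1 window chr15:29969050-29969299, the CLDN6 window chr16:3018184-3018433 and the CLDN7 window chr17:7263214-7263463, the last 3 on the minus strand.
OCLN: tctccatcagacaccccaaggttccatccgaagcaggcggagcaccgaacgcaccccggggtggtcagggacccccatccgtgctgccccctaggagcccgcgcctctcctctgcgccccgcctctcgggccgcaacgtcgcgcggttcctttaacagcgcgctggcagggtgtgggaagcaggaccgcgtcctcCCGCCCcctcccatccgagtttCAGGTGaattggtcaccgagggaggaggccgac
TJP1: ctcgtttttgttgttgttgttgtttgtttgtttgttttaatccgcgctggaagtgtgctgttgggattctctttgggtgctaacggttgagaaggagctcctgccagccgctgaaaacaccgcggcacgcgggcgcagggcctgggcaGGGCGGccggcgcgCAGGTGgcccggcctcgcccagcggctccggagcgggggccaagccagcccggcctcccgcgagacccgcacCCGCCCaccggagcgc
CLDN6: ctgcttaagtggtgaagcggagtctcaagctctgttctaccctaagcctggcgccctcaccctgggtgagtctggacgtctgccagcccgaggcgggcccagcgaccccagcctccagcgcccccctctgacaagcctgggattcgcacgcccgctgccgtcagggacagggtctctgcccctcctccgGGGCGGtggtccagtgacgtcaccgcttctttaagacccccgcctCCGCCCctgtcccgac
CLDN7: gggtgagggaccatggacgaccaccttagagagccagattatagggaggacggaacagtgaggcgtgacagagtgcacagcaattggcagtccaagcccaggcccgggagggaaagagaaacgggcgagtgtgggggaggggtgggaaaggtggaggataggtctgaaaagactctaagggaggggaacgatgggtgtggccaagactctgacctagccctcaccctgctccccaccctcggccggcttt

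Both occludin and TJP1 held 1 match to CACCTG, on the minus strand of their windows, at bases -33 to -28 and -88 to -83 before the start. The windows of the other 6 members held none, and 17.5% of 35116 promoter windows of this length held 1 or more on either strand. Each member was read at its most upstream start only, though 4 starts were listed for TJP1 and 2 each for OCLN, CLDN7 and CLDN10. The share over all windows counts each listed start of a gene, so the units differ. GGGCGG was found in 6 of 8 member windows and in 42.6% of all; the CLDN7 and CLDN10 windows had none. No member window held TATAAA, found in 10.7% of all, or AACNNGTT, the core of the sites of grainyhead-like factors, found in 3.0%. The share of G and C in the 8 member windows ran from 39.6% in CLDN10 to 71.6% in CLDN3, and was 60.4% in CLDN7 and 68.8% in OCLN, beside a median of 58.0% over all windows. These matches are letters in a window and show no binding.

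CLDN6 had a difference of about the size of that of occludin but did not pass as a gene. Its brightest probe set, 237810_at, was at 7.51, 7.63, 7.17 and 8.63 on the small arrays and at 8.13, 9.54, 9.37 and 8.67 on the large arrays. Small array 4 lay above large array 1, so the groups overlapped. The difference was -1.19 ± 0.33 SE (limma adjusted p = 0.0853), with a 95% interval from -1.90 to -0.48. The second probe set, 208474_at, was at 5.52, 5.83, 5.41 and 5.98 on the small arrays and at 6.13, 7.49, 7.28 and 6.98 on the large arrays. There the groups did not overlap, and the difference of -1.29 ± 0.28 SE, or 2.44-fold lower in small cells, passed over all probe sets (limma adjusted p = 0.0376). Of 14 tested member probe sets, 2 were called, this one and 227492_at of occludin, where 1.50% of all probe sets were called in either direction and 1.30% as lower in small. Groups lay apart for 5 of the 14, each with small lower, where 9.34% of all probe sets did so, and 5.46% with small lower; 4 of the 5 belong to occludin and read the same gene.

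Single arrays decided on which side of the threshold CLDN6 lay, among them large array 1, where the 3 prime excess was highest. Without large array 1 the difference of CLDN6 was -1.46 (limma adjusted p = 0.0255), and without small array 4 it was -1.49 (adjusted p = 0.0285). Over the 8 fits without 1 array it was called in 2, with adjusted p from 0.0255 to 0.212. CLDN6 was also called with the sort number as a block in the fit (limma adjusted p = 0.038), though the numbers were not taken as pairs. With the 3 prime excess added to the fit it was -0.98 (adjusted p = 0.144), while occludin was at -1.0 and still called (adjusted p = 0.0442). The called CLDN6 probe set 208474_at kept its call in 2 of the 8 fits without 1 array, those without large array 1 and without small array 4, with adjusted p from 0.0093 to 0.121.

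**Figure D2:**
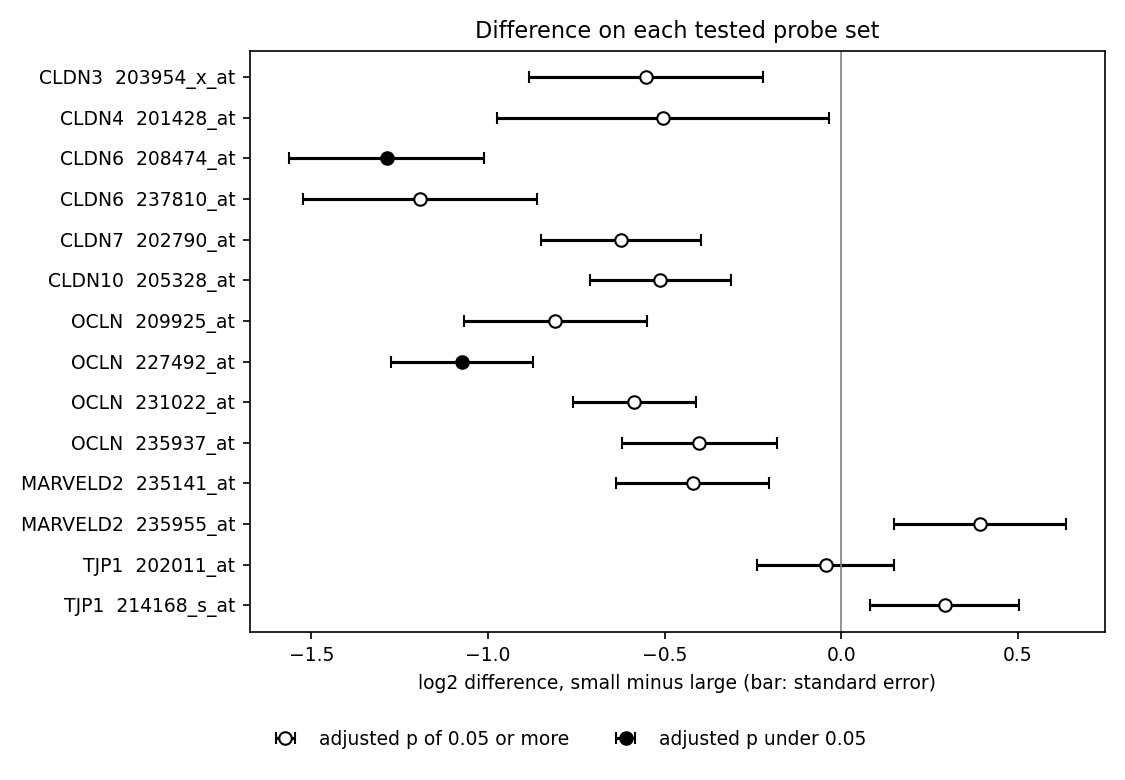
Log2 difference, small minus large (x axis), of each of the 14 tested probe sets of the 8 genes, with its standard error; filled points passed at an adjusted p under 0.05 over all probe sets. The 2 filled points are CLDN6 208474_at at -1.29 and OCLN 227492_at at -1.07; MARVELD2 235955_at at 0.39 and TJP1 214168_s_at at 0.29 lie to the right of 0.

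CLDN7, a claudin found along the whole sides of many epithelial cells, was at 6.69, 6.79, 6.36 and 7.24 on the small arrays and at 6.93, 7.70, 7.54 and 7.40 on the large arrays. Small array 4 again lay above large array 1. The difference of -0.62 ± 0.22 SE did not pass (limma adjusted p = 0.181, 95% interval -1.10 to -0.14).

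CLDN6 and CLDN7 put the 8 arrays in the same order. Pearson's r between them was 0.98 over the 8 arrays, Spearman's rho was 1, and r was 0.98 without small array 3 and large array 2, the arrays farthest from the median of CLDN6. After each group's mean was removed, r was 0.97, so the likeness was not only the shift between small and large. This pair was picked as the highest of 28 pairs of members, the arrays share normalization and RNA quality, and the value is a description. The genes lie on different chromosomes, 16 and 17. The gene outside the set most like either one over the 8 arrays was ABHD12, a lipid hydrolase gene, with r of 0.99 to CLDN6 and 0.99 to CLDN7; its own difference was -0.56 (limma adjusted p = 0.219).

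CLDN3 and CLDN4, both known as receptors for a toxin of Clostridium perfringens, are neighbours on chromosome 7 and were dim. CLDN3 was at 4.09, 3.96, 4.76 and 5.11 on the small arrays and at 5.24, 5.46, 4.79 and 4.63 on the large arrays. CLDN4 was at 3.55, 3.19, 4.47 and 4.97 on the small arrays and at 4.20, 5.29, 4.97 and 3.72 on the large arrays. For both genes the sorts of the 2 groups were interleaved. The differences were -0.55 ± 0.34 SE for CLDN3 and -0.50 ± 0.48 for CLDN4 (limma adjusted p = 0.448 and 0.656), with 95% intervals of -1.28 to 0.17 and -1.53 to 0.52. These intervals hold both 0 and differences as large as that of occludin. The probe set of CLDN3 is of the _x_at kind, which can bind other transcripts.

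Within the small group CLDN3 and CLDN4 ran together from the dimmest sort to the brightest, and within the large group less so. Over the 8 arrays r was 0.84 and rho 0.86, r was 0.83 with group means removed, and it was 0.57 without small arrays 1 and 2, so much of the relation rests on those 2 arrays. The second probe sets of CLDN3 and CLDN4 and one of CLDN10 did not pass the filter, at the 16.2, 22.2 and 27.3 percentiles of mean level, and were not tested.

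**Figure D3:**
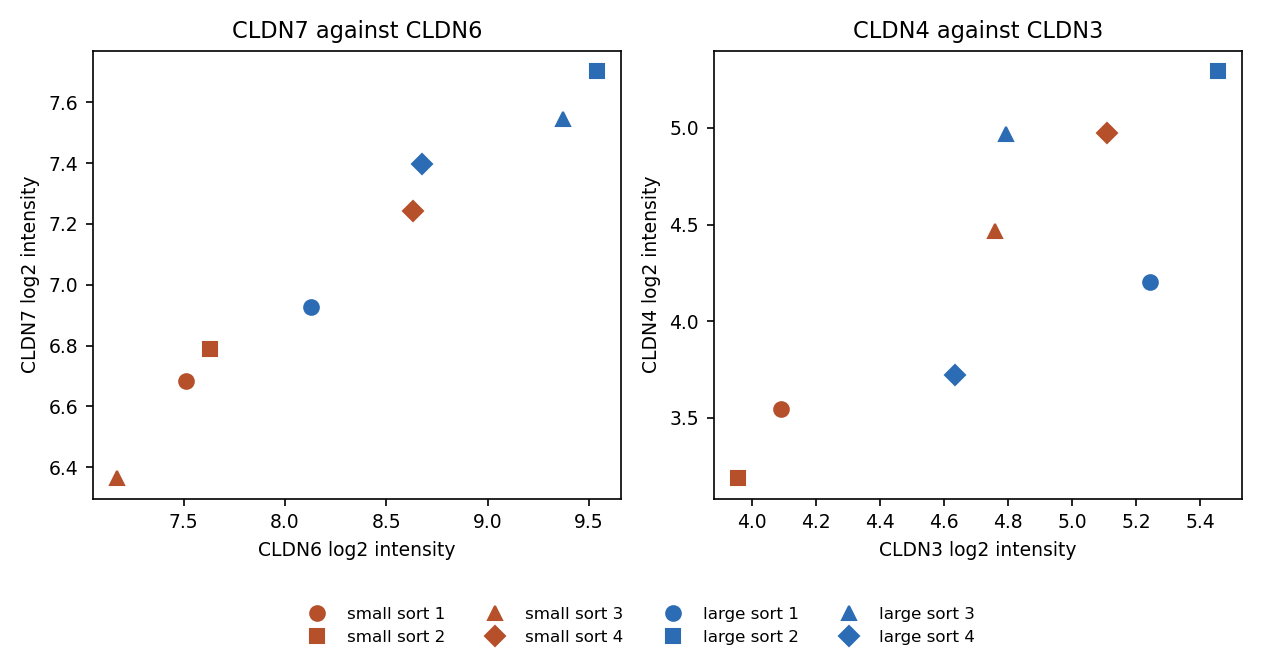
Normalized log2 intensity of CLDN7 against CLDN6 (left) and of CLDN4 against CLDN3 (right), 1 symbol per sort. The 8 sorts lie close to a rising line on the left (r = 0.98), with small sort 4 beside large sort 4, and scatter more on the right (r = 0.84).

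CLDN10, which forms ion-selective pores in kidney and glands, was at 6.85, 6.88, 6.71 and 7.16 on the small arrays and at 7.65, 7.15, 7.11 and 7.74 on the large arrays. Small array 4 lay just above large arrays 2 and 3. The difference was -0.51 ± 0.20 SE and did not pass (limma adjusted p = 0.207, 95% interval -0.93 to -0.09). Unlike CLDN6 and CLDN7, CLDN10 was higher on large array 1 than on large arrays 2 and 3, and its r to CLDN6 with group means removed was -0.20.

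Tricellulin, MARVELD2, lies next to occludin on chromosome 5 in the order of protein-coding genes. Its brighter probe set was at 7.32, 6.94, 7.83 and 7.63 on the small arrays and at 8.16, 7.54, 8.01 and 7.69 on the large arrays, and the groups overlapped. The difference of -0.42 ± 0.21 SE did not pass (limma adjusted p = 0.351, 95% interval -0.88 to 0.04). The second probe set pointed the other way, at 5.70, 5.52, 6.02 and 5.28 on the small arrays and at 5.59, 5.17, 5.24 and 4.94 on the large arrays, with a difference of 0.39 ± 0.24 SE (adjusted p = 0.474). With the mean of both probe sets tricellulin was at -0.01. No direction can therefore be given for this gene.

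The scaffold TJP1 was at 9.85, 9.61, 10.44 and 10.13 on the small arrays and at 9.67, 9.92, 10.40 and 10.22 on the large arrays. The sorts of both groups covered the same range, and the difference was -0.04 ± 0.19 SE (limma adjusted p = 0.943). The 95% interval of -0.46 to 0.37 holds no difference as large as that estimated for occludin. The second probe set of TJP1 was at 0.29 ± 0.21 SE (adjusted p = 0.553).

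The membrane genes can be set against TJP1 on the same array. With the deposited intensities this removes a scaling factor shared by all probe sets of an array. With the normalized values, given first, it does not undo the normalization, which can move bright and dim probe sets by different amounts. The log2 ratio of occludin to TJP1 was -2.76, -2.11, -2.70 and -2.33 on the small arrays and -1.43, -1.44, -1.54 and -1.36 on the large arrays. Only the change of this ratio between arrays can be read, since 2 probe sets do not share a scale. Its mean was -2.47 ± 0.31 (SD, n = 4) in small cells and -1.44 ± 0.08 (SD, n = 4) in large cells, and the groups lay apart. The deposited intensities, with no normalization and no pseudocount, gave a mean ratio of -2.52 in small cells and -1.40 in large cells. The ratio was chosen after the values had been seen and is given with no test.

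For the other genes the normalized ratio to TJP1 overlapped between groups. The mean ratio of small minus large was -1.15 for CLDN6, -0.58 for CLDN7, -0.51 for CLDN3, -0.47 for CLDN10, -0.46 for CLDN4 and -0.38 for MARVELD2. On the deposited intensities the groups also lay apart for CLDN7 (-0.72) and MARVELD2 (-0.48), whose highest small values were close to their lowest large values.

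**Figure D4:**
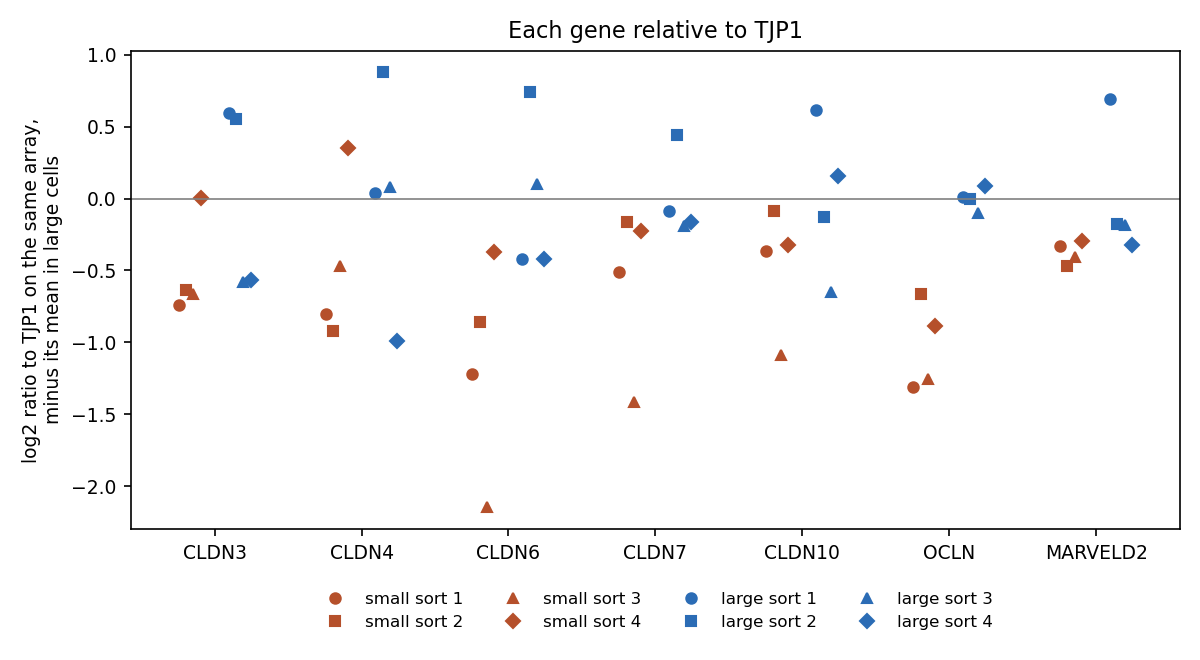
Log2 ratio of each gene to TJP1 on the same array, less the mean of the large arrays (y axis, log2 units), with small sorts to the left and large sorts to the right for each gene and 1 symbol per sort. The 4 large sorts of OCLN lie within 0.2 of each other and above all 4 small sorts, and for the other 6 genes the groups overlap.

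The sorts of 1 group also differed among themselves. On small array 4 all 8 members lay above the mean of the small arrays, and on small array 1 none did, while 52.8% and 51.2% of all genes lay above it on these arrays. On large arrays 1 to 4, the members above the mean of the large arrays numbered 3, 4, 6 and 4. The 3 prime excess was 2.44 and 2.42 on small arrays 1 and 4, and its part in the members' spread was not tested. For occludin the gene outside the set with the nearest pattern over the 8 arrays was the nonmuscle myosin MYH10 (r = 0.99), with a difference of -0.48 (limma adjusted p = 0.0446). The nearest were SLC2A6 for CLDN3 (r = 0.96), LINC01346 for CLDN4 (r = 0.95), ADCYAP1R1 for CLDN10 (r = 0.94), PPP6R1 for TJP1 (r = 0.99) and ABCA7 for MARVELD2 (r = 0.97). Each is the highest value among all tested genes outside the set, and is given as a description.

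Among the other claudins, CLDN12 fell in small cells. Of 19 genes in that list 9 were tested, 1 was lower and 0 higher, where 1.69% of all genes were called lower and 0.299% higher. Groups lay apart with small lower for 1 of the 9, against 5.07% of all genes. CLDN12, an atypical claudin that lacks the motif by which other claudins bind TJP1, was at 6.96, 6.86, 6.80 and 7.14 on the small arrays and at 7.74, 8.13, 8.09 and 8.10 on the large arrays. Each small sort lay below each large sort. The difference was -1.08 ± 0.16 SE (limma adjusted p = 0.00754), and CLDN12 was called in all 8 fits without 1 array. CLDN19 was at -0.04 ± 0.30 SE. The 9 tested claudins had a median difference of -0.17, and CLDN9, the neighbour of CLDN6 on chromosome 16, was at 0.96 ± 0.67 SE (adjusted p = 0.518); it was chosen after its value had been seen.

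Of 10 tested genes for other tight junction membrane proteins, 1 was lower and 0 higher, where 1.69% of all genes were called lower and 0.299% higher. The list had a median of -0.13. Groups lay apart with small lower for 2 of the 10, against 5.07% of all genes. The coxsackie and adenovirus receptor CXADR, an adhesion protein of the same family as F11R, was at 10.38, 10.49, 11.20 and 10.73 on the small arrays and at 11.25, 11.28, 11.43 and 11.69 on the large arrays. The groups did not overlap, though small array 3 came close to large array 1. The difference was -0.71 ± 0.17 SE (limma adjusted p = 0.0468), and the call held in 2 of 8 fits without 1 array, those without small array 3 and without large array 1, with adjusted p from 0.013 to 0.151. It was also lost with 75th percentile centring (-0.55), with the mean of its probe sets (-0.49), without the filter, without _x_at and _s_at probe sets and with the 3 prime excess in the fit, at adjusted p from 0.0514 to 0.0936. JAM3, another relative of F11R, was at -0.36 ± 0.15 SE and did not pass (adjusted p = 0.26).

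Scaffolds and polarity proteins were followed in 2 lists. Of 12 tested genes of the cytoplasmic plaque, the protein layer under the junction, none passed, and their median was 0.01. At an unadjusted p under 0.05 there were 2 of 12, a share near the 16.5% of all genes. They were CGN at -0.69 ± 0.20 SE (limma adjusted p = 0.0916) and CGNL1 at -0.43 ± 0.16 SE (adjusted p = 0.187), named after their values had been seen. Groups lay apart with small lower for these 2 and with small higher for YBX3, against 5.07% and 4.94% of all genes. YBX3, a factor that binds ZO-1, was at 0.15 ± 0.10 SE and the vesicle GTPase RAB13 at 0.19 ± 0.20 SE. The 17 polarity genes had a median of -0.02. Of these 1 was higher and 0 lower, where 0.299% of all genes were called higher and 1.69% lower. That gene, the GTPase CDC42, was at 10.17, 10.39, 10.40 and 10.35 on the small arrays and at 10.02, 9.39, 9.56 and 9.77 on the large arrays, a difference of 0.64 ± 0.14 SE (limma adjusted p = 0.0401) that was called in 1 of 8 fits without 1 array, the one without large array 1, with adjusted p from 0.014 to 0.117. The mean of the CDC42 probe sets gave 0.38 (adjusted p = 0.435), and the call was also lost without the filter (0.0515) and with the 3 prime excess in the fit (0.0803). The atypical protein kinase C gene PRKCI was at -0.25 ± 0.16 SE.

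Of 12 tested epithelial regulators 2 were lower and 0 higher, where 1.69% of all genes were called lower and 0.299% higher. The list had a median of -0.18. Groups lay apart with small lower for 2 of the 12, against 5.07% of all genes. SPINT2, an inhibitor of membrane serine proteases, was at 8.19, 7.95, 8.48 and 8.43 on the small arrays and at 9.10, 9.39, 9.58 and 9.26 on the large arrays, a difference of -1.07 ± 0.16 SE (limma adjusted p = 0.00754) that was called in all 8 fits without 1 array. EPCAM, a surface protein that binds CLDN7, lay between 10.84 and 11.02 on the small arrays and between 11.30 and 11.61 on the large arrays. Its groups lay apart, with a difference of -0.54 ± 0.11 SE (limma adjusted p = 0.0236), and the call held in 3 of 8 fits without 1 array, those without small array 3 or 4 or large array 1, with adjusted p from 0.0127 to 0.0988. EPCAM was not called with 75th percentile centring (-0.33, adjusted p = 0.214) or with the 3 prime excess in the fit (adjusted p = 0.0516). The splicing regulator ESRP1 was at -0.15 ± 0.14 SE. Of the 12 differences 8 were below 0. At an unadjusted p under 0.05, which 16.5% of all genes reached, there were also ST14 at -1.42 ± 0.55 SE, SPINT1 at -0.73 ± 0.29 SE and GRHL3 at 1.28 ± 0.54 SE. GRHL3 was thus higher in small cells, but its mean on the large arrays, 3.42, lay below the filter level of 3.62. These genes were named after their values had been seen.

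Of 5 tested repressors of epithelial junction genes none passed. All 5 differences were above 0 under this normalization, with a median of 0.46; other scalings were not run for this list. At an unadjusted p under 0.05 there were 3 of the 5, against 16.5% of all genes in either direction: TCF3 at 0.46 ± 0.16 SE (limma adjusted p = 0.166), TWIST1 at 0.79 ± 0.29 SE and SNAI3 at 1.65 ± 0.60 SE. SNAI3 was at 1.31 on large array 1, against 3.96 to 4.69 on the other large arrays and 5.13 to 5.48 on the small arrays. Its mean on the large arrays, 3.620, lay just below the filter level of 3.623, so SNAI3 passed the filter through the small arrays, where it was higher. The count of 3 of the 5 includes this gene and is no support for a shift of the list. SNAI3 and TWIST1 were named after their values had been seen. ZEB1, ZEB2 and SNAI1 had probe sets that did not pass the filter on low values. TCF4 was at 0.03 ± 0.21 SE.

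Of 12 tested adherens junction genes 2 were lower and 0 higher, where 1.69% of all genes were called lower and 0.299% higher. The list had a median of -0.29. Groups lay apart with small lower for 3 of the 12, against 5.07% of all genes. E-cadherin, CDH1, was at 9.48, 9.48, 10.24 and 10.12 on the small arrays and at 10.72, 10.45, 11.53 and 11.39 on the large arrays. P-cadherin, CDH3, was at 8.37, 7.92, 8.22 and 8.62 on the small arrays and at 9.08, 8.97, 9.09 and 9.15 on the large arrays. Neither gene overlapped between groups. The differences were -1.19 ± 0.24 SE and -0.79 ± 0.16 SE (limma adjusted p = 0.0262 each). Each was called in 4 of 8 fits without 1 array, with adjusted p up to 0.0971 and 0.0982, and lost without small array 1 or 2 or large array 3 or 4. The 3 prime excess in the fit also ended the call of CDH1 (adjusted p = 0.0576), and 75th percentile centring that of CDH3 (adjusted p = 0.0598). The actin-binding proteins CTNNA1 and VCL were at 0.08 ± 0.11 SE and -0.25 ± 0.14 SE, and neither passed.

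**Figure D5:**
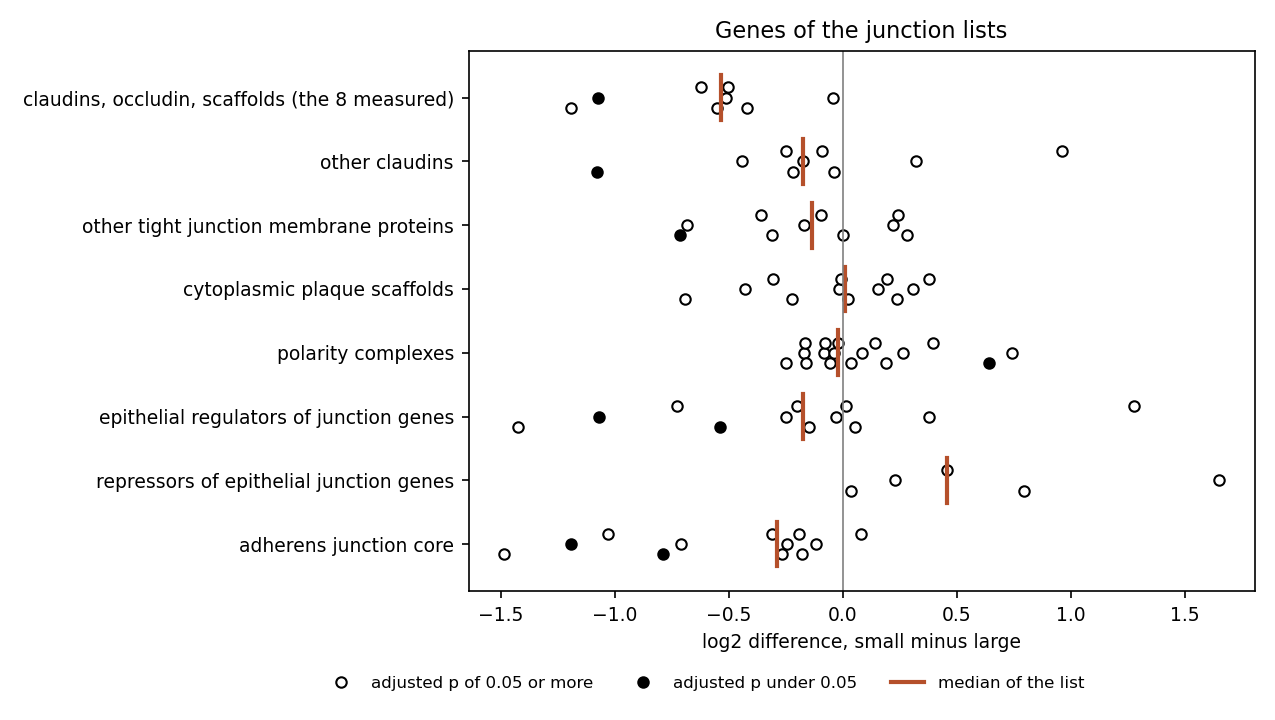
Log2 difference, small minus large (x axis), of every tested gene in 8 lists (y axis), filled where the adjusted p over all genes was under 0.05, with the median of each list as a vertical bar. The medians run from -0.53 for the 8 measured genes to 0.46 for the repressors, and the 1 filled point above 0 is CDC42.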

How the data were processed

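The deposited table gives 1 intensity for each probe set on each array, on a linear scale; no background correction or scaling is stated. Per the labels' protocols, 1 ug of total RNA was amplified and biotin-labelled, and each array received 15 ug of cRNA for 16 hours; by the design text, scans were imported into Rosetta Resolver 7.1. The sources used here do not name the program that wrote the values. Groups and sort numbers came from the sample titles. The deposited intensities were moved to log2 after adding 1.81, the 10th percentile of all values, which understates fold changes of dim genes, and quantile normalized. After 62 controls were removed, 32768 probe sets above the 40th percentile of mean level (3.62) were tested. GEO's annotation gave 41091 probe sets 1 symbol, 1801 several and 11721 none; 41037 were found by gene ID and updated. A gene was its brightest tested probe set.

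The test of small against large was limma's (3.58.1, R 4.3.3; eBayes with a variance trend), two-sided, with Benjamini-Hochberg adjustment over 14726 genes or over all probe sets and a threshold of 0.05. The number of arrays limits precision: the median SE over genes was 0.23, and that of the members ran from 0.19 to 0.48. Equally numbered sorts were not treated as pairs. P-values measure the spread between sorts of 1 line.

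The members and lists were chosen with earlier results of these data known. All members were named. From each junction list every called gene and the 2 brightest were named, and from the markers NANOG and SOX2. For each member the gene with the highest Pearson r was named. Some other genes of the lists were named after their values had been seen. Alternatives were other scalings, pseudocounts, filters, variance priors, array weights, probe set rules, thresholds, a replicate block, quality covariates and leaving out arrays; leaving out large array 1 together with small array 3 was added after seeing the data, as were all alternatives for list genes. Promoter sequences are from RefSeq (GRCh38.p14), where 8 of the 8 measured members matched by symbol.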

Additional observations from a re-analysis of the deposited data

Results flagged for a closer look

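Of 88 groups of 4 values examined (tested probe sets of the members, named genes of the lists and quality measures in either group), 4 had a sample far from the others, and chance gives about 1 in 20. The 3 prime excess of GAPDH and ACTB was 2.92 on large array 1, against 1.83 to 1.89 on the other large arrays. CLDN12 was at 7.74 on large array 1, against 8.09 to 8.13 on the other large arrays and at most 7.14 on the small arrays. VCL was at 10.28 on small array 1, against 10.52 to 10.53 on the other small arrays. CTNNA1 was at 10.74 on small array 3, against 10.47 to 10.50 on the other small arrays. No tested probe set of the 8 members had such a sample.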

How the results depend on the processing

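The difference of occludin kept its direction in all 25 alternatives, from -1.26 to -0.72, and its call in 18. Beside 4 of the fits without 1 array, the call was lost with the deposited scaling kept (adjusted p = 1), under median centring (0.302) and when the variance trend was dropped (0.118). In these 3 settings limma called 0 genes and 0 members, with 494, 1575 and 2234 genes and 2, 3 and 4 members below an unadjusted p of 0.05. The median difference of all genes was -0.05 with the deposited scaling, against 0.05 after quantile normalization. CLDN6 was called in 5 of 25 alternatives, with differences from -1.49 to -0.98; CLDN3, CLDN4, CLDN7 and CLDN10 kept their direction in every alternative run and were called in none. The brighter probe set of MARVELD2 stayed below 0 and the dimmer above 0 in every alternative run, and the gene was called in none. The number of genes called was 293 and that of members 1. With a replicate block these were 753 and 2, with CLDN6 at adjusted p = 0.038; no called member lost its call under the block, and deviations of equally numbered sorts correlated at 0.114, 0.126, 0.234 and 0.014. The numbers were not taken as pairs because the labels name no shared culture and the last value was not above 0.1. Each small sort but small 4 correlated best with the large sort of its own number, a hint of pairing from the data and not from the design. COL3A1, picked after its values had been seen, was at 7.65, 8.55, 6.73 and 4.91 on small arrays 1 to 4. On large arrays 1 to 4 it was at 7.97, 8.39, 6.28 and 5.10. With the block the SE of occludin was 0.136 and that of CDH1 0.108, against 0.20 and 0.24 without it. Pairing can therefore not be excluded. Array weights gave 824 genes and 2 members, a threshold of 0.1 gave 593 and 2, and leaving out large array 1 and small array 3 gave 776 and 2. Without _x_at and _s_at probe sets 190 genes were called, with the 3 prime to 5 prime covariate 166, and with array brightness as a covariate 550, each with 1 member. Leaving out 1 array gave 62 (without small array 1) to 553 (without large array 1) genes and 0 to 2 members. Of calls, 85.0% were lower in small cells, 70.5% with 75th percentile centring, 68.1% with the block, 64.8% with array weights, 73.6% with the brightness covariate and 59.1% without large array 1 and small array 3; of the 2431 genes at an unadjusted p under 0.05, 48.5% were lower. TJP1 changed sign with median centring (0.105), 75th percentile centring (0.104), the mean of its probe sets (0.124) and the brightness covariate (0.041), and ran from -0.19 to 0.088 with 1 array left out. The cause of these changes was not tested. The dim signals of CLDN3 and CLDN4 limit what can be said of them.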
